A study of Saccharomyces cerevisiae with 4 samples.

Results

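The promoters of 39 named genes for building the yeast cell wall and guarding its integrity were examined, out of 6002 protein-coding promoters in all. A promoter was taken as the 500 bp upstream of the start codon in the RefSeq gene table (assembly R64, the same build as sacCer3). Of the 39 genes, 38 were found by symbol and WSC1 by its synonym, as YOR008C. The rule for choosing the genes was their name and function, and earlier results of these data were known when the list was drawn up.

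Open chromatin of Saccharomyces cerevisiae, laboratory strain BY4741, was mapped by ATAC-seq, an assay of where the transposase Tn5 can reach the DNA. Cells grew at 30 °C and were collected in mid-logarithmic phase. There were 2 libraries of cells lacking SWC4 (swc4Δ) and 2 of wild-type cells (WT), and nothing else in the labels set the genotypes apart. Swc4 belongs to both the SWR1 remodeller, which places the histone variant H2A.Z, and the histone acetyltransferase NuA4. SWC4 had a promoter or gene peak in 0 of the 4 libraries, so peaks offered no check of the deletion. Separate cultures were not stated for the replicates, and their spread may therefore be technical. All cells were treated with zymolyase, an enzyme that digests the wall, before Tn5 was added.

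The yeast wall is a network of β-1,3-glucan, with β-1,6-glucan and chitin attached and an outer layer of mannoproteins. When the wall is stressed, sensors in the plasma membrane such as Wsc1 and Mid2 act through Rho1 and the kinase Pkc1. Pkc1 starts a MAP kinase cascade that ends in Slt2, and Slt2 activates the transcription factor Rlm1. Rlm1 in turn induces many genes for wall proteins and wall enzymes.

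Peaks numbered 2826 and 2368 in swc4Δ and 2354 and 2115 in WT. A peak's fold is the authors' own value, the ratio of its summit to the background of its library. The ladder of deposited folds gave a background pileup of 24.4 and 25.5 fragments in swc4Δ and 22.6 and 24.0 in WT. Over all promoters, peaks were more frequent in swc4Δ on chromosomes IV, V, VIII and XI, which hold 10 of the 39 genes. No rule independent of these data is given for setting these chromosomes apart. The split therefore describes the data and is not an independent check. On these chromosomes 66.8% and 65.4% of the 1665 promoters had a peak in swc4Δ, against 45.8% and 38.0% in WT. Elsewhere the shares were 51.8% and 36.7% in swc4Δ and 46.5% and 38.8% in WT, over 4337 promoters.

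Most cell wall promoters were open in both genotypes. A peak overlapped 36 and 32 of the 39 promoters in the swc4Δ libraries, against 31 and 28 in the WT libraries. These are shares of 92.3% and 82.1% in swc4Δ and 79.5% and 71.8% in WT. Over all promoters the shares were 55.9% and 44.6% in swc4Δ and 46.3% and 38.6% in WT, so wall promoters had a peak more often than the average promoter in every library. The mean share was 87.2% ± 7.25 in swc4Δ and 75.6% ± 5.44 in WT (SD, n = 2 each), a difference of 11.5 points. The lowest swc4Δ share lay above the highest WT share. The gap between those libraries was a single promoter. Without swc4Δ replicate 1 the difference was 6.41 points. Over all promoters the difference was 7.83 points, and there the genotypes overlapped. With 2 against 2 libraries an exact permutation test cannot give a two-sided p below 0.333, so no difference between the genotypes reported here could pass 0.05.

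**Figure D1:**
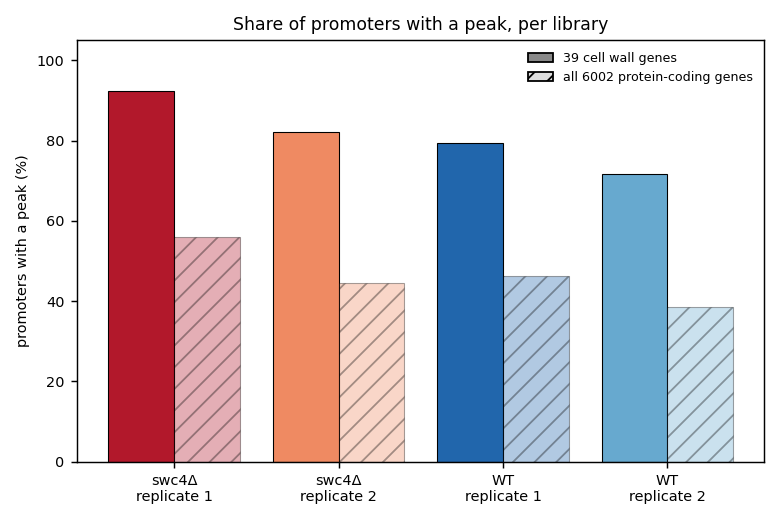
Share of promoters with a peak in each library, in percent, for the 39 cell wall genes (solid bars) and for all 6002 protein-coding genes (hatched bars). Bars are single libraries with no error; the solid bars run from 71.8% in WT replicate 2 to 92.3% in swc4Δ replicate 1 and exceed the hatched bar of the same library in all 4.

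A promoter with a peak in all 4 libraries is called shared. Of the 39 promoters, 27 (69.2%) were shared, where 31.1% of all promoters were. This count takes in any peak that touches the window by 1 bp. With a required overlap of 50%, 19 (48.7%) were shared, against 24.4% of all promoters. With the summit required inside the window, 10 (25.6%) were, against 18.7% of all. A promoter was gained when both swc4Δ libraries and no WT library had a peak there, and lost in the opposite case. PIR3, SLT2 and PRM5 were gained, 7.69% of the 39 against 5.23% of all promoters, and 0 were lost, against 1.05% of all. PIR3 and SLT2 lie on chromosomes XI and VIII, and gains over all promoters gathered on IV, V, VIII and XI. Of 314 gained promoters in all, only 85 lay among the 4337 promoters off these chromosomes. Another 6 promoters, those of FKS1, BGL2, CHS2, CHS3, PKC1 and RLM1, had peaks in some libraries of either genotype without meeting a call. GAS3, SUN4 and WSC1 had no peak in any library, which held for 37.4% of all promoters. The count of 3 gains sits near the background share and is read as no more than 3 promoters.

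**Figure D2:**
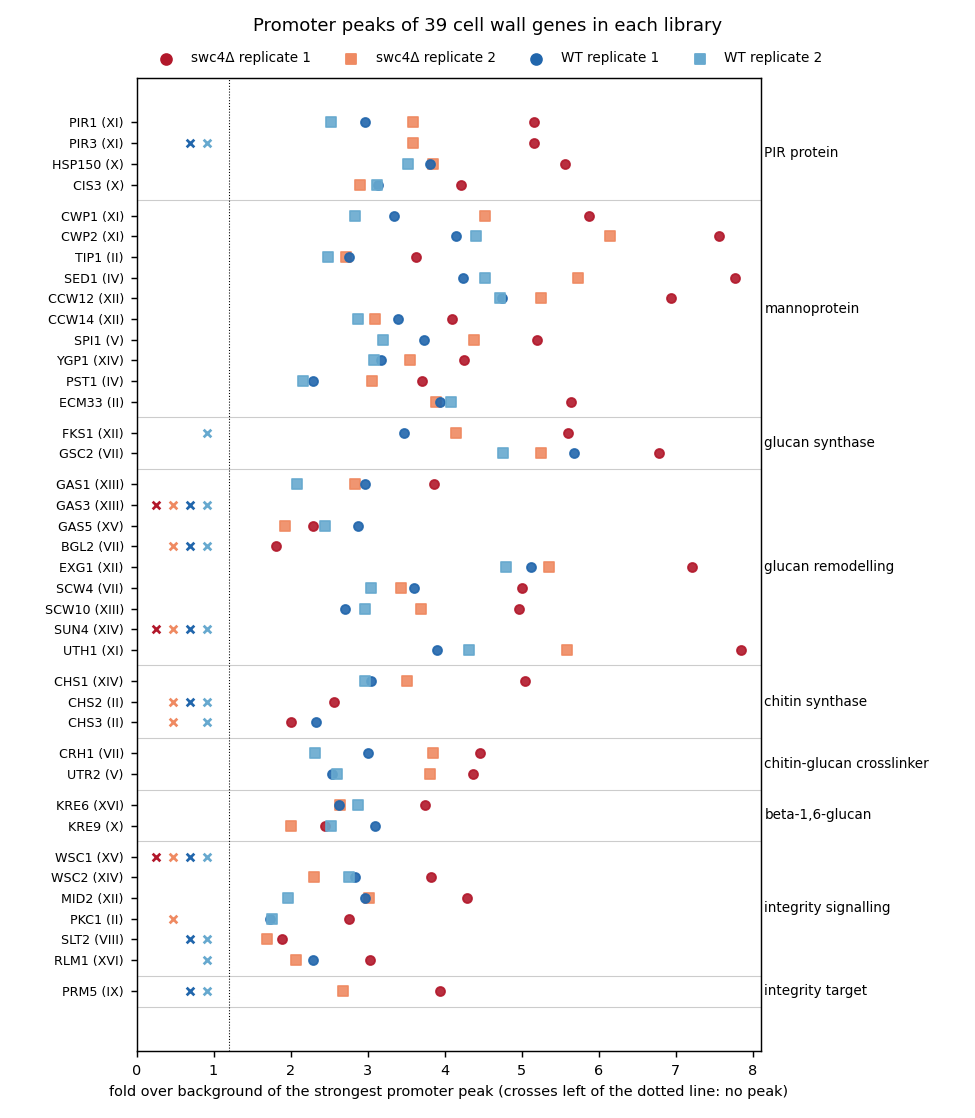
Fold over background of the strongest peak in each of the 39 promoters, by library, with genes grouped by role and their chromosome in brackets; crosses left of the dotted line mark libraries with no peak there. Folds run from 1.70 at SLT2 in swc4Δ replicate 2 to 7.84 at UTH1 in swc4Δ replicate 1.

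PRM5 (YIL117C, chromosome IX, 140613 to 141569) codes for a membrane protein that is induced by pheromone and by Slt2 signalling. Its promoter had folds of 3.94 and 2.68 in the swc4Δ libraries and no peak in either WT library. The peaks were narrow, 323 and 299 bp, with summits 388 and 387 bp upstream of the start codon, so both swc4Δ libraries placed the opening at nearly the same base. Their 95% Poisson intervals, which cover counting error only, were 3.21 to 4.79 and 2.10 to 3.38. The lowest fold in the WT lists was 1.61 and 1.56, below both intervals. Those are minima over whole lists and not WT values at PRM5, so they give no test of a difference there. A separate opening toward the neighbouring HIS5, an enzyme gene of histidine synthesis, was present in every library. The nearest WT peaks lay 476 and 496 bp outside the window. PRM5 was the only gained wall promoter outside chromosomes IV, V, VIII and XI, where 1.96% of all promoters were gained.

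PIR3 (YKL163W, chromosome XI, 144401 to 145378) and PIR1 (YKL164C, 141794 to 142819) code for O-mannosylated proteins linked directly to β-1,3-glucan. They face away from each other across a gap of 1581 bp. A peak stood in that gap in all 4 libraries, and it reached the PIR3 window in the swc4Δ libraries alone. It was 2564 and 1312 bp wide in swc4Δ, against 907 and 527 bp in WT. Its summit lay 1076 and 1122 bp upstream of PIR3 in swc4Δ, nearer to PIR1, and the WT peaks stopped 27 and 377 bp short of the window. PIR1 and PIR3 thus shared 1 peak in each swc4Δ library, the only such pair among the 39. The gain at PIR3 was a wider peak at the same place, and with summits required inside the window it was not called. On chromosome XI 27.7% of all promoters were gained.

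SLT2 (YHR030C, chromosome VIII, 168890 to 170344), the gene of the pathway's MAP kinase, had folds of 1.89 and 1.70 in swc4Δ and no WT peak. These were among the weakest peaks of their lists, at percentiles 9.98 and 3.17, where the percentile is the rank of a peak's fold within its own list. Summits lay 102 and 66 bp upstream of the start codon. The Poisson intervals of 1.40 to 2.50 and 1.24 to 2.27 reached below the lowest folds of the WT lists, 1.61 and 1.56. Those are minima over whole lists and not WT values at SLT2. They give no test there, and whether SLT2 differed from WT cannot be told from these peaks. The gain was not called at a stricter threshold or with equal numbers of peaks per list.

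**Figure D3:**
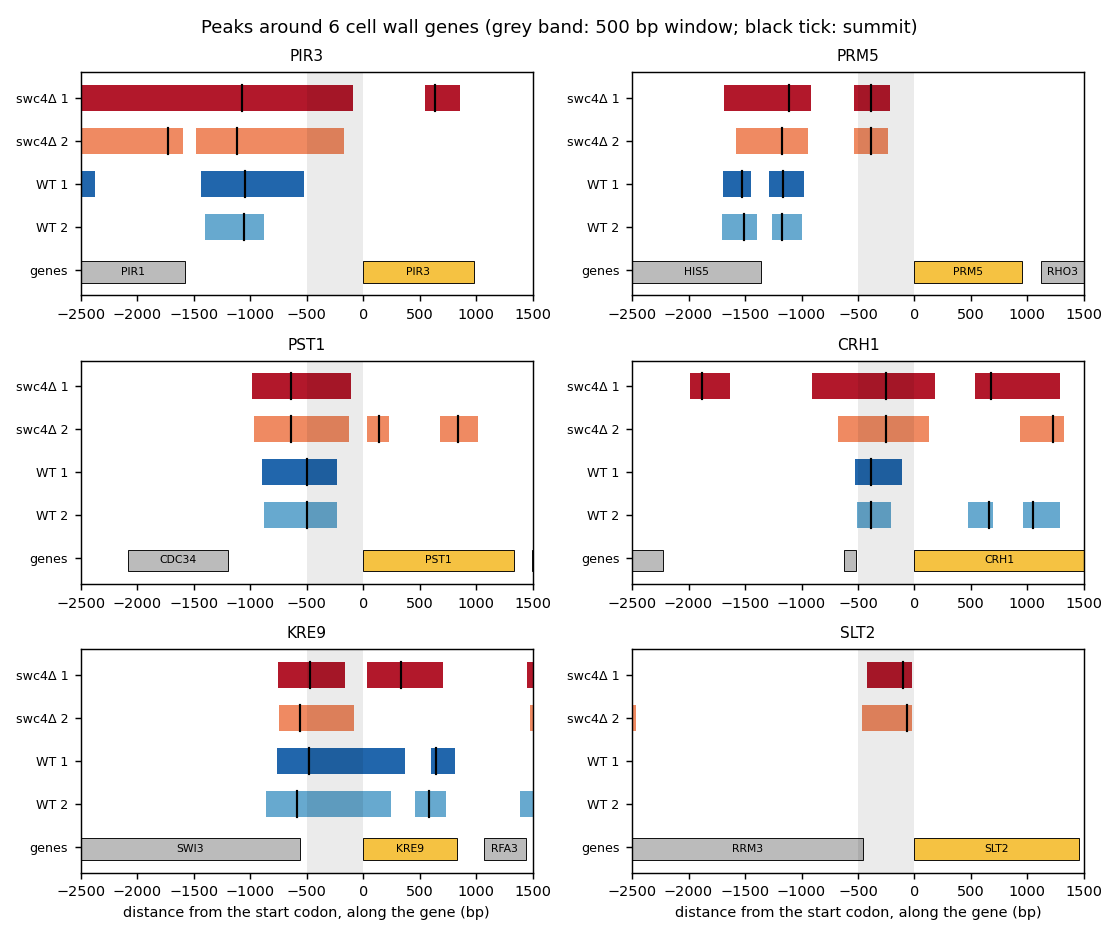
Peaks of each library (coloured bars, summit as a black tick) and genes (grey, with the named gene in yellow) around 6 cell wall genes, by distance in bp from the start codon along the gene; the grey band is the 500 bp promoter window. The narrow PRM5 peak is drawn in the 2 swc4Δ libraries only, while at PIR3 a peak outside the window in WT is drawn out into it in swc4Δ.

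The lists differ in length, so genotypes were compared by rank over the same 1867 promoters with a peak in all 4 libraries. Each promoter's strongest fold was turned into a percentile among those 1867, separately in each library. The median percentile of the 27 shared wall promoters was 70.4 and 63.8 in swc4Δ, against 51.6 and 59.0 in WT. The corresponding median folds were 4.97 and 3.59 in swc4Δ and 3.13 and 2.96 in WT, where all 1867 shared promoters had 3.94 and 3.06 in swc4Δ and 3.09 and 2.76 in WT. Gene by gene, the median difference in percentile was 5.70 points, against -0.74 over all 1867. Of the 27, 13 ranked higher in both swc4Δ libraries than in both WT libraries, a share of 48.1% against 24.4% of all shared promoters. Another 3 ranked lower, 11.1% against 27.2%, and 11 overlapped.

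The chromosome a gene sits on moved with this result. All 8 shared wall promoters on IV, V, VIII and XI ranked higher in swc4Δ. Over the genome 456 of 1867 shared promoters did (24.4%), and only 185 of these 456 lay among the 1302 off the 4 chromosomes. The share of all shared promoters on IV, V, VIII and XI was thus well above 24.4%. The median difference of the 8 wall promoters was 21.2 points, where all 565 shared promoters of these chromosomes had 8.58. Of the 8, 4 lie on XI, where 83.6% of all shared promoters ranked higher. On XI the median difference was 21.2 points for the 4 wall promoters and 19.8 for all 116 shared promoters. Off chromosomes IV, V, VIII and XI, 0 of the 29 wall promoters were lost, against 1.45% of all. Among the 19 shared there 5 ranked higher and 3 lower, shares of 26.3% and 15.8%, where all shared promoters there had 14.2% and 35.6%. The median difference there was 0.75 points, against -3.12 over all shared promoters of those chromosomes. With each fold divided by the median of its chromosome and library, 11 of the 27 ranked higher and 3 lower, against 22.3% and 23.8% of all. Of the 13, 8 remained higher on that scale, and CWP2, PIR1, SED1, SPI1 and UTH1 overlapped. All 5 that overlapped lie on IV, V, VIII or XI, where 3 of the 8 shared wall promoters remained higher. GAS1, HSP150 and YGP1 overlapped as first ranked and were higher with scaling.

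**Figure D4:**
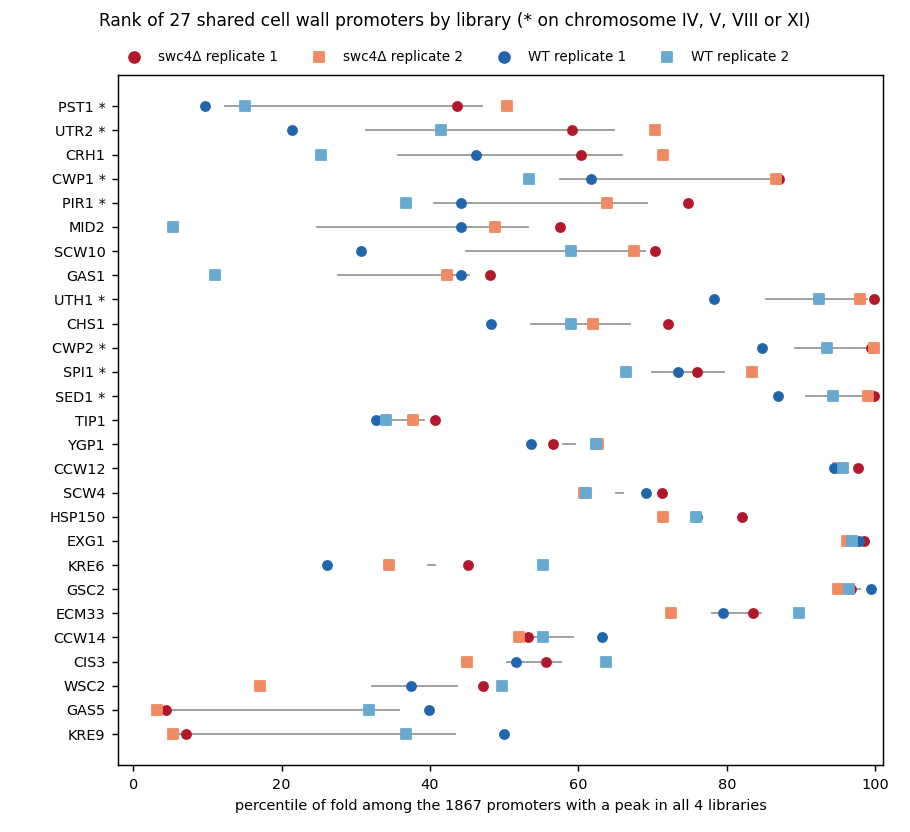
Percentile of fold among the 1867 shared promoters for each of the 27 shared cell wall promoters, by library, ordered by the difference between the genotype means (grey line); an asterisk marks genes on chromosome IV, V, VIII or XI. PST1 is at the top, with 43.6 and 50.4 in swc4Δ against 9.69 and 15.1 in WT, and KRE9 at the bottom, with 7.10 and 5.33 in swc4Δ against 49.9 and 36.8 in WT.

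Among wall proteins, the 4 PIR genes had open promoters throughout, apart from PIR3. PIR1 stood at percentiles of 74.8 and 63.8 in swc4Δ, against 44.2 and 36.8 in WT, with no overlap. Scaled to chromosome XI the genotypes overlapped and the difference was 1.47 points instead of 28.8. On that chromosome 83.6% of the shared promoters ranked higher in swc4Δ. HSP150, also called PIR2, had folds of 5.56 and 3.85 in swc4Δ and 3.81 and 3.52 in WT, and its percentiles of 82.0 and 71.4 in swc4Δ enclosed the WT values of 76.0 and 75.9. With chromosome scaling it no longer overlapped and ranked higher in swc4Δ by 8.74 points. CIS3, or PIR4, overlapped as well, with folds of 4.22 and 2.91 in swc4Δ and 3.13 and 3.12 in WT.

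All 10 genes for other wall glycoproteins, most of them held by a GPI remnant, had a promoter peak in every library. PST1 (YDR055W, chromosome IV, 563527 to 564861), a GPI protein whose gene is induced by wall damage through Slt2, ranked higher in swc4Δ by 34.7 points, the largest such difference of the 27 with all libraries and no scaling. Its folds were 3.70 and 3.06 in swc4Δ and 2.29 and 2.16 in WT. In percentiles these were 43.6 and 50.4 in swc4Δ, against 9.69 and 15.1 in WT. The summit also lay elsewhere, 636 and 637 bp upstream of the start codon in swc4Δ, against 502 and 500 bp in WT. With chromosome scaling the rank difference was 23.3 points, still without overlap, and CRH1, SCW10, UTR2, MID2 and CHS1 had larger ones. ECM33, a related GPI protein gene, did not share this, with folds of 5.64 and 3.89 in swc4Δ and 3.94 and 4.08 in WT and with summits 495 to 499 bp upstream in all libraries.

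CWP1 and CWP2 code for abundant wall mannoproteins and lie in tandem on chromosome XI. CWP1 (YKL096W, 261132 to 261851) had folds of 5.87 and 4.53 in swc4Δ and 3.35 and 2.84 in WT. Its percentiles were 87.0 and 86.6 in swc4Δ, against 61.7 and 53.3 in WT, and on the chromosome scale the difference shrank from 29.3 to 4.66 points. CWP2 (YKL096W-A, 259253 to 259531) was among the strongest wall promoters, with folds of 7.57 and 6.15 in swc4Δ and 4.15 and 4.40 in WT. It ranked higher in swc4Δ by 10.5 points, and by 5.86 without WT replicate 1. Its summit lay inside the neighbouring gene YKL097C in every library, and only 30 bp separate CWP2 from the nearest upstream gene.

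Several of the strongest openings belonged to genes of structural mannoproteins. SED1 (YDR077W, chromosome IV, 600793 to 601809), the main GPI protein of stationary-phase walls, had folds of 7.76 and 5.74 in swc4Δ and 4.24 and 4.52 in WT. It ranked at percentiles of 99.8 and 99.0 in swc4Δ, against 86.9 and 94.3 in WT. The difference of 8.77 points was 4.93 without WT replicate 1. CCW12 (YLR110C, chromosome XII, 369697 to 370098), whose protein is a major determinant of wall stability, had folds of 6.94 and 5.25 in swc4Δ and 4.74 and 4.72 in WT. It overlapped, at percentiles of 97.7 and 94.9 in swc4Δ and 94.5 and 95.7 in WT. Its summit lay within YLR112W in all libraries, 719 to 867 bp from the CCW12 start codon.

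The remaining glycoprotein genes gave differences in both directions. SPI1, induced by weak acids, and TIP1, induced by cold, ranked higher in swc4Δ by 9.75 and 5.70 points. YGP1, induced on nutrient limitation, overlapped, with percentiles of 56.5 and 62.7 in swc4Δ and 53.6 and 62.3 in WT, but ranked higher in swc4Δ by 13.3 points with chromosome scaling. CCW14 (YLR390W-A, chromosome XII, 903724 to 904440), an inner-layer glycoprotein gene, was 1 of the 3 shared wall promoters that ranked lower, at 53.2 and 52.0 in swc4Δ against 63.2 and 55.3 in WT.

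FKS1 and GSC2 code for the alternative catalytic subunits of β-1,3-glucan synthase, FKS1 in growing cells and GSC2 (FKS2) under stress. GSC2 (YGR032W, chromosome VII, 548264 to 553951) had folds of 6.78 and 5.25 in swc4Δ and 5.68 and 4.76 in WT. Its percentiles of 96.7 and 94.9 in swc4Δ and 99.4 and 96.4 in WT overlapped. FKS1 had folds of 5.60 and 4.15 in swc4Δ and 3.47 in WT replicate 1, with summits 708 to 797 bp upstream. In WT replicate 2 its nearest peak stopped 22 bp outside the window, close to the window's edge.

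Enzymes that cut and rejoin glucan were divided. EXG1 (YLR300W, chromosome XII, 728955 to 730301), the major exo-β-1,3-glucanase gene, had folds of 7.21 and 5.36 in swc4Δ and 5.13 and 4.80 in WT. It held the highest mean rank of the 27, at percentiles of 98.4 and 96.2 in swc4Δ and 97.8 and 96.8 in WT, with no separation. GAS5 (YOL030W, chromosome XV, 268187 to 269641), a β-1,3-glucanosyltransferase gene, ranked lower in swc4Δ. Its folds were 2.29 and 1.92 in swc4Δ and 2.88 and 2.44 in WT, and its peak was 245 bp wide in both swc4Δ libraries, against 708 and 537 bp in WT. The percentiles were 4.45 and 3.24 in swc4Δ, against 39.9 and 31.8 in WT, and stayed apart after chromosome scaling.

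GAS1, the main glucanosyltransferase gene, overlapped, with percentiles of 48.2 and 42.2 in swc4Δ and 44.2 and 11.0 in WT, while scaling by chromosome separated the genotypes. GAS3 had its nearest peak 944 to 995 bp outside the window. SCW10, a glucanase-like wall protein gene, ranked higher, at 70.4 and 67.5 in swc4Δ against 30.6 and 59.0 in WT. The related SCW4 overlapped, at 71.3 and 60.7 in swc4Δ and 69.1 and 61.0 in WT. BGL2, an endoglucanase-like transferase gene, had a peak in swc4Δ replicate 1 alone, with a fold of 1.81.

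SUN4 and UTH1 code for wall proteins of the SUN family. SUN4 had no promoter peak, and its nearest peak lay 113 to 199 bp outside the window. UTH1 (YKR042W, chromosome XI, 519527 to 520624) held the single highest fold of the 39, 7.84 in swc4Δ replicate 1, with 5.59 in swc4Δ replicate 2 and 3.90 and 4.32 in WT. Its peak spanned 3539 and 3548 bp in swc4Δ, where it also covered the tRNA gene YNCK0019W (517988 to 518060), against 1118 and 1091 bp in WT, where it did not. The rank difference of 13.6 points was 6.30 without WT replicate 1, and 1.69 on the chromosome scale.

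Chitin synthase promoters were mostly weak. CHS1, whose enzyme repairs the wall after division, was the only shared promoter of the 3 and ranked higher, at 72.0 and 61.9 in swc4Δ against 48.2 and 59.0 in WT. CHS2, for the primary septum, had a peak in swc4Δ replicate 1 alone, with a fold of 2.56. CHS3, for most wall chitin, had peaks in replicate 1 of each genotype, at 2.01 in swc4Δ and 2.33 in WT.

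CRH1 and UTR2 code for the transglycosylases that join chitin to glucan, and both ranked higher in swc4Δ. UTR2 (YEL040W, chromosome V, 78053 to 79456) had folds of 4.37 and 3.81 in swc4Δ and 2.54 and 2.60 in WT. Its percentiles were 59.2 and 70.3 in swc4Δ, against 21.4 and 41.4 in WT. CRH1 (YGR189C, chromosome VII, 876669 to 878192) had folds of 4.45 and 3.85 in swc4Δ and 3.01 and 2.32 in WT, with percentiles of 60.4 and 71.4 in swc4Δ against 46.2 and 25.3 in WT. With scaling the differences were 29.0 points at UTR2 and 37.2 at CRH1, and neither overlapped. Without WT replicate 2 the difference at CRH1 was 17.4 points instead of 30.2.

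The CRH1 peak also changed shape. It was 1091 and 810 bp wide in swc4Δ, against 418 and 306 bp in WT. Its summit lay 256 and 252 bp upstream of the start codon in swc4Δ, against 386 and 381 bp in WT. In swc4Δ it ran into the coding sequence on one side and covered the whole tRNA gene YNCG0042C (878710 to 878815) on the other. That tRNA gene lay outside the 500 bp window and was covered in part by the peak of WT replicate 1 and not by that of WT replicate 2. Whether the tRNA gene had a part in the difference was not tested.

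KRE6 and KRE9 act in β-1,6-glucan assembly. KRE9 (YJL174W, chromosome X, 95092 to 95922) had the largest rank difference of the 27 in favour of WT. Its folds were 2.44 and 2.00 in swc4Δ and 3.09 and 2.52 in WT, and its percentiles 7.10 and 5.33 in swc4Δ against 49.9 and 36.8 in WT. The peak was 591 and 662 bp wide in swc4Δ, against 1132 and 1104 bp in WT, where it ran on into the KRE9 coding sequence. In swc4Δ replicate 1 a separate peak lay over the gene, and peaks covered 80.4% and 0% of the coding sequence in swc4Δ, against 69.9% and 62.5% in WT. KRE6 overlapped, at 45.1 and 34.5 in swc4Δ and 26.2 and 55.3 in WT. Its peak covered the tRNA gene YNCP0022W (chromosome XVI, 856902 to 856974) in all 4 libraries.

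At the 6 genes of the integrity pathway itself no fold exceeded 4.30, and WSC1 had no peak. Among its sensors, MID2 (YLR332W, chromosome XII, 790676 to 791806) had folds of 4.30 and 3.02 in swc4Δ and 2.97 and 1.96 in WT. Its percentiles of 57.5 and 48.8 in swc4Δ lay above 44.2 and 5.36 in WT, a difference of 28.4 points that was 7.86 without WT replicate 2. WSC2 overlapped, with percentiles of 47.2 and 17.1 in swc4Δ and 37.5 and 49.8 in WT. PKC1 had folds of 2.76 in swc4Δ replicate 1 and 1.74 and 1.76 in WT, and no peak in swc4Δ replicate 2. RLM1 had 3.03 and 2.08 in swc4Δ and 2.29 in WT replicate 1. The exact permutation p was 0.333 for each of the 16 promoters whose ranks did not overlap, the smallest the design allows.

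The strongest peaks touching shared wall promoters had summits farther upstream than those of all shared promoters. Their median summit distance from the start codon was 490 and 501 bp in swc4Δ and 498 and 530 bp in WT. All 1867 shared promoters had 318 and 322 bp in swc4Δ and 319 and 326 bp in WT. Many of these summits lay beyond the 500 bp window, at 40.7% and 51.9% of the shared wall promoters in swc4Δ and 44.4% and 51.9% in WT. Over all shared promoters the shares were 24.4% and 23.8% in swc4Δ and 24.0% and 25.4% in WT. In the gene table, without use of any peak, the median gap between a wall gene and its upstream neighbour was 887 bp, against 448 bp over all genes. The gap exceeded 500 bp for 27 of the 39, or 69.2%, against 43.7% of all genes. Among genes with such a gap, 77.8% of the wall promoters were shared, against 43.3% of 2618 genes. Among those with a shorter gap the shares were 50.0% of 12 wall promoters and 21.6% of 3375 genes. The part of the gap in the frequency of peaks was not tested.

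Peaks were also wide. The median width was 874 and 842 bp in swc4Δ and 708 and 651 bp in WT, or 858 ± 22.6 and 679.5 ± 40.3 bp (SD, n = 2 each). All shared promoters had medians of 721 and 622 bp in swc4Δ and 624 and 546 bp in WT. Peaks of 1000 bp or more stood at 13 and 13 of the 27 (48.1% in both) in swc4Δ and at 11 and 9 (40.7% and 33.3%) in WT. Over all shared promoters the shares were 32.2% and 26.8% in swc4Δ and 25.4% and 20.0% in WT. The difference in median width between the genotypes was 178.5 bp, and 99 bp without chromosomes IV, V, VIII and XI.

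**Figure D5:**
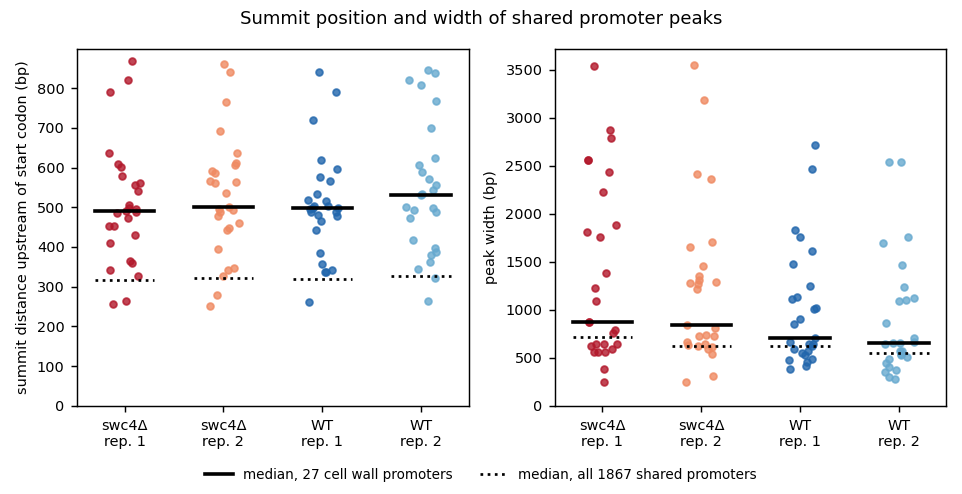
Distance of the summit upstream of the start codon (left) and peak width (right), both in bp, for the 27 shared cell wall promoters in each library, with their median (solid line) and that of all 1867 shared promoters (dotted line). The median summit distance of the wall promoters lies between 490 and 530 bp in the 4 libraries, above the dotted line in each.

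Accessibility often ran into the wall genes themselves. Peaks covered at least 50% of the coding sequence at 11 and 9 of the 39 genes in swc4Δ and at 8 and 9 in WT. Over all genes such cover was seen at 8.90% and 7.65% in swc4Δ and at 7.65% and 7.23% in WT. HSP150, SED1, CCW12, CCW14 and UTH1 were covered to that extent in all 4 libraries. Cover was greater in both swc4Δ libraries than in both WT libraries at PIR1, CWP1, CWP2, FKS1 and UTH1, and smaller at YGP1, where 10.0% of all genes had greater and 5.86% smaller cover. Of these 6 genes, 4 lie on chromosome XI. At YGP1 the cover was 0% in both swc4Δ libraries, against 44.9% and 83.8% in WT.

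A further 58 genes of wall synthesis and integrity signalling were examined in the same way. The lists are not independent, since FKS3 has the same peak as SCW10 in all 4 libraries and PIR5 the same peak as HSP150 in 3 of them. A peak stood at 43 and 38 of their promoters in swc4Δ and at 33 and 31 in WT. The shares were 74.1% and 65.5% in swc4Δ and 56.9% and 53.4% in WT. SWI4, PTP2 and DCW1 were gained, 5.17% of the 58, near the 5.23% of all promoters, and 0 were lost, against 1.05% of all. SWI4, on chromosome V, is a cell-cycle transcription factor gene that also serves the Slt2 pathway and had folds of 2.52 and 2.23 in swc4Δ. PTP2, a phosphatase gene that acts on MAP kinases including Slt2, had 2.84 and 2.30 in swc4Δ. DCW1, on chromosome XI, codes for a putative mannosidase needed for wall formation and had 3.27 and 2.45 in swc4Δ. Of the 29 shared promoters in this list 10 (34.5%) ranked higher in swc4Δ and 4 (13.8%) lower, against 24.4% and 27.2% of all shared promoters. Of the cascade kinase genes, BCK1 and MKK2 had no promoter peak in any library. MKK1 had one in each, with folds of 3.51 and 2.57 in swc4Δ and 3.26 and 2.36 in WT.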

How the data were processed

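ATAC-seq peak lists of 2 swc4Δ and 2 WT libraries were used, with genotype and replicate number from the titles. The submitters' processing notes name sacCer3, deepTools 1.5.11, SAMtools 1.4, Picard 2.18.7, Bowtie2 2.3.1 and Trim Galore 0.5.0, without their roles. The sources used here do not give the peak caller or any Tn5 shift. Each deposited list held per peak a fold (ratio over background), −log10 p and q values and a summit, called per library. The authors also deposited 1 list per genotype with a score per region. Whether it pooled replicates is not given there.

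All deposited folds lay within 0.01 of a whole step of a ladder set by a constant background, which gave the depth. Poisson intervals (95%) come from those fragments. Start codons came from the gene table, with strand from the systematic name. A peak counted with 1 bp of overlap, and the strongest was used. Percentiles were compared over the 1867 promoters peaked in all 4 libraries. The members and lists were chosen with earlier results of these data known. Values in every library were given for members gained or lost, for the 6 highest mean ranks, for up to 6 in each direction without overlap, and for others as context. Promoter sequence and motifs were not analysed here. Calls and ranks were tested on simulated data. Python 3.11.15, pandas 2.3.3, NumPy 2.4.6 and SciPy 1.17.1 were used. Alternatives were a stricter −log10 q of 5, equal list lengths of 2115 peaks, each library left out, an overlap of 50%, summits in the window, a 300 bp window, a window trimmed at the neighbour, members off chromosomes IV, V, VIII and XI, chromosome scaling and a replicate block.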

Additional observations from a re-analysis of the deposited data

How the results depend on the processing

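The difference in the share of wall promoters with a peak stayed above 0 under the alternatives listed. Chromosome scaling leaves peak calls, and with them this difference, unchanged. The difference in the median percentile stayed above 0 under all alternatives (11.8 points as reported, and 4.65 without chromosomes IV, V, VIII and XI). Leaving out 1 library gave 6.41 to 16.7 points for the share, 7.76 to 13.5 for the percentile and 149 to 207 bp for the median width. It gave 3 to 5 gains, 0 to 1 losses, and 14 to 19 higher and 3 to 10 lower ranks. The higher ranks were 51.9% to 67.9% of the shared wall promoters, against 32.9% to 37.5% of all shared promoters. With all libraries these shares were 48.1% and 24.4%. Without swc4Δ replicate 1, 10 promoters ranked lower and PKC1 was lost, and without WT replicate 1 the number lower was 7. These are 37.0% and 25.9% of the shared wall promoters, where 39.4% and 41.6% of all shared promoters ranked lower. There were 5 gains without swc4Δ replicate 2, without WT replicate 1 or with an overlap of 50%, where 12.0%, 9.85% and 5.16% of all promoters were gained. Without the 4 chromosomes there was 1 gain among 29 wall promoters (3.45%), against 1.96% of all promoters there. A 300 bp window gave 1 loss, GAS5. With summits in the window 5 of 10 shared wall promoters ranked higher (50.0%), against 25.4% of all shared promoters. Without the 4 chromosomes 5 of 19 did (26.3%), against 14.2%. Ranks lower numbered 1 at the stricter threshold and 1 with summits in the window. The width difference was 492 bp at the stricter threshold, 466.5 bp with an overlap of 50%, 240.5 bp with summits in the window, 396 bp with a 300 bp window and 99 bp without the 4 chromosomes. EXG1, near 0 as reported, was at 0.033 points at the stricter threshold and 0.10 with an overlap of 50%, and ran from -1.13 to 0.98 with a library left out. CCW12 ran from -0.15 to 2.40 in the same way, and GSC2 was at 0.50 with chromosome scaling. Except where the alternative itself removes peaks, libraries or promoters, the cause was not tested.

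Replicate numbers are shared between genotypes, and nothing says that they mark a common batch. Over the 1867 promoters the deviations of same-numbered libraries had a correlation of -0.046. As a replicate block, calls within same-numbered pairs, summed over both pairs, gave 10 gains, at 7 distinct promoters, and 1 loss. The 10 gains are 12.8% of the calls possible over both pairs, against 12.8% over all promoters, and the loss is 1.28%, against 4.99%. At background pileups of 22.6 to 25.5 fragments, weak peaks such as those of SLT2 and BGL2, and of PKC1 in WT, lie close to what the lists can show.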

Other observations

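The authors' genotype lists, which have no replicates, covered 34 of the 39 wall promoters in swc4Δ and 17 in WT. These are 87.2% in swc4Δ and 43.6% in WT, where the lists covered 54.3% and 22.0% of all promoters in the same genotypes. The lists differ in length, with 2602 regions in swc4Δ and 1002 in WT. GAS3, BGL2, SUN4, CHS3 and WSC1 were covered in neither list.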
